A study of Mus musculus with 12 samples.

Results

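The genes described here are 10 cytokine receptor chains of macrophages, namely Il10ra, Il10rb, Il6ra, Il6st, Il4ra, Il13ra1, Il2rg, Ifngr1, Ifngr2 and Ifnar1. They were chosen by gene symbol, and all 10 had a row in the count table of 24421 symbols and passed the filter on low counts, which left 11468 genes. The RNA came from macrophages derived from the bone marrow of wild-type C57BL/6 mice (BMDMs) and grown for 5 days in 100 ng/mL M-CSF with fresh medium on day 3. In each of 4 groups of 3 libraries, mice A, B and C gave 1 library each. DMSO_Ova cells received the solvent DMSO and ovalbumin (Ova), and DMSO_IC cells received DMSO and ovalbumin bound by rabbit antibody in an immune complex (IC). IBET_Ova and IBET_IC cells received the same stimuli together with 5.0 µM I-BET151 (iBET), which blocks the acetyl-lysine pockets of the BET chromatin readers. Exposure to the stimulus lasted 4 hours. The labels give drug and stimulus as simultaneous, whereas the study places the drug before the complexes or ovalbumin. The order and the length of exposure to the drug are therefore uncertain.

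Cytokine receptors of this kind have no enzyme of their own. Ligand binding brings their chains together, and Janus kinases (JAKs) that sit on the chains phosphorylate STAT transcription factors. Some chains bind 1 ligand, whereas others are shared: Il10rb serves IL-10, IL-22 and the interferon lambdas, Il6st (gp130) the IL-6 family, and Il2rg (the common gamma chain) IL-2, IL-4, IL-7, IL-15 and IL-21. In macrophages IL-10 acting through STAT3 restrains inflammatory genes, IL-4 and IL-13 acting through STAT6 drive alternative activation, and interferons prime antimicrobial and antiviral genes.

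Libraries held 7549849 to 17387639 counts. DMSO_Ova of mouse A stood apart, since the ribosomal RNA locus Rn45s took 77.4% of its counts and left 1768133 counts for all other genes, against 1.41 to 7.83% in the other libraries. The drug changes of the members with Ova, and the list counts with Ova, are given without it too. Levels are CPM, counts scaled to a total of 1000000 per library, on library sizes scaled by TMM, a method that aligns the bulk of genes between libraries. The 9 macrophage markers, among them Adgre1, Cd68 and Csf1r, summed to 6571 to 9322 CPM. They summed to 6571 to 7976 CPM with DMSO and 7841 to 9322 CPM with iBET. Marker lists of other cells were far lower, at 5.65 to 33.5 CPM for neutrophils, 1.08 to 4.59 for T and NK cells, 0.23 to 1.36 for dendritic cells, 0.226 to 1.33 for B cells, 0.0772 to 1.58 for stromal cells and at most 0.551 for mast cells and basophils. Cpa3, Mcpt8 and Ms4a2 had no counts in any library. In bulk RNA, fewer cells of a type and less RNA per cell cannot be told apart.

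All 10 chains were detected in all 12 libraries. Divided by exon length to compare genes (CPM per kb), Il10rb led in DMSO_Ova at 56.4 ± 5.32 (mean ± SD, n = 3 here and below), ahead of Ifnar1 at 46.1 ± 6.06, with overlapping libraries. Il2rg (40.3 ± 0.713), Ifngr2 (39.2 ± 8.23) and Ifngr1 (39.1 ± 8.66) followed and overlapped each other. Then came Il10ra at 20.0 ± 3.92, Il6st at 15.3 ± 1.04, Il4ra at 8.13 ± 0.609, Il6ra at 5.18 ± 1.57 and Il13ra1 at 0.711 ± 0.181, none overlapping its neighbour in this order. Il13ra1 was thus scarce, with 4 to 60 counts in a library, whereas the other 9 chains had 61 to 6704. With iBET the order changed at the top and in the middle. Il10rb took the third place at 31.9 ± 5.21 in IBET_Ova and the fourth at 29.2 ± 3.71 in IBET_IC, where its libraries overlapped those of Ifngr1 and Ifngr2. Il4ra moved from the eighth place to the sixth in IBET_IC, at 16.8 ± 1.78 CPM per kb, level with Il10ra (15.4 ± 1.99), whose libraries it overlapped. Il6ra and Il13ra1 held the last places in all 4 groups.

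**Figure D1:**
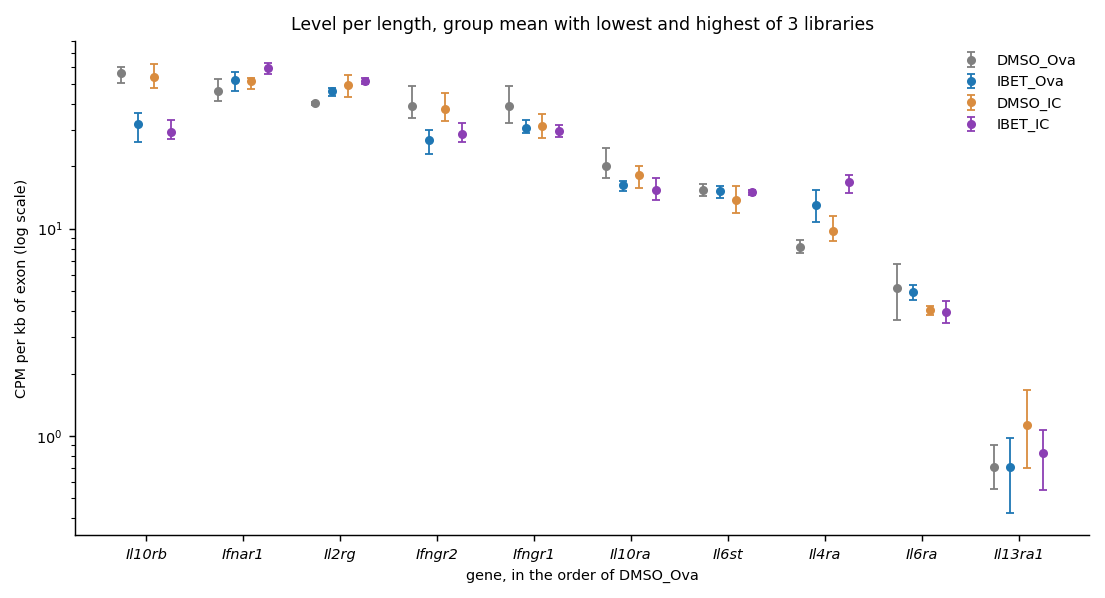
Level of each receptor gene per kilobase of exon (CPM per kb, log axis) in the 4 groups; points are means and bars run from the lowest to the highest of 3 libraries. Il13ra1 lies below 2 CPM per kb in every group, and the iBET groups of Il10rb lie below its DMSO groups.

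The drug comparisons asked how BET inhibition changes the receptors in resting and in complex-stimulated macrophages. Il10rb fell and Il4ra rose with iBET under both stimuli, and Ifngr2 fell with Ova. By edgeR's quasi-likelihood test with Benjamini-Hochberg adjustment over all 11468 genes, called at an adjusted p under 0.05, 3 of 10 members were called with Ova (1 higher, 2 lower). That is 30.0% of the members, beside 31.3% of all genes (17.1% higher, 14.2% lower). With IC 2 of 10 were called (1 higher, 1 lower), which is 20.0%, beside 34.8% of all genes (19.0% higher, 15.8% lower). Called in both with the same sign were 2 members, beside 25.9% of all genes (14.3% higher, 11.6% lower). The CPM of the drug and solvent groups did not overlap for 5 members with Ova (45.1% of all genes) and for 4 with IC (48.6%). In this fit the share of members called was thus near or under that of all genes, and 10 members are too few to tell such shares apart. The median absolute log2 change of the members was 0.23 with Ova and 0.22 with IC, beside 0.35 and 0.37 for all genes. That difference was not tested. A fit without mouse B called no member with Ova by edgeR, where it called 11.4% of all genes. With IC that fit called Il10rb and Il4ra, at the adjusted p given for each below. With the replicate block, which compares libraries within a mouse, 5 were called with Ova and 3 with IC, beside 38.3% and 42.1% of all genes in that fit. Without DMSO_Ova of mouse A the same 3 members were called with Ova, beside 29.0% of all genes, and Ifngr2 was called with IC as well. No member was called with IC against Ova in that fit.

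**Figure D2:**
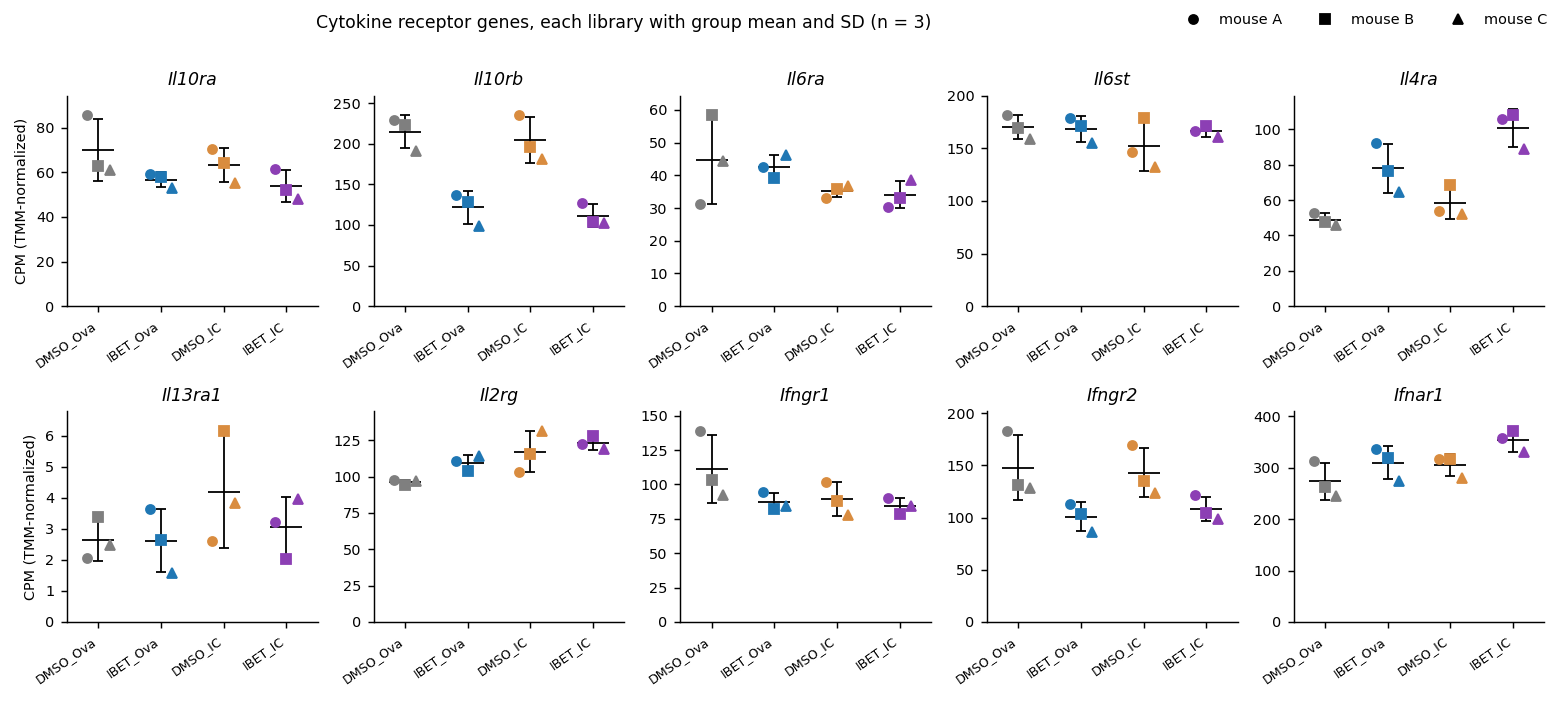
CPM of the 10 receptor genes in every library by group, with a symbol per mouse and the group mean ± SD (n = 3). The iBET libraries of Il10rb and Ifngr2 lie below, and those of Il4ra above, the DMSO libraries of the same stimulus.

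The IL-10 receptor consists of Il10ra, which binds IL-10 and carries JAK1, and Il10rb, which carries TYK2. In mice A, B and C, Il10rb stood at 229, 223 and 191 CPM in DMSO_Ova and at 137, 128 and 99.2 CPM in IBET_Ova. With IC it stood at 236, 195 and 182 CPM in solvent and at 128, 103 and 103 CPM in iBET. All 6 iBET libraries were below all 6 solvent libraries. The log2 fold change was -0.82 ± 0.15 (SE) with Ova (adjusted p = 0.00124, 0.567-fold) and -0.87 ± 0.15 with IC (adjusted p = 0.000662, 0.545-fold), lower in 3 of 3 mice each time. Without mouse B the adjusted p was 0.0536 with Ova and 0.0399 with IC, and without DMSO_Ova of mouse A the change with Ova was -0.82 (adjusted p = 0.00171).

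Il10ra stood at 85.8, 63.0 and 61.2 CPM in DMSO_Ova, 59.4, 57.9 and 52.9 in IBET_Ova, 70.4, 64.3 and 55.1 in DMSO_IC and 61.5, 52.2 and 47.8 in IBET_IC. It was lower with iBET in 3 of 3 mice under each stimulus, and the groups did not overlap with Ova but did with IC. The test did not call it, at a log2 change of -0.28 with Ova (95% interval -0.60 to 0.04, adjusted p = 0.168) and -0.23 with IC (-0.54 to 0.08, adjusted p = 0.239). With the replicate block it was called with Ova (log2 change -0.28, adjusted p = 0.0402). Without DMSO_Ova of mouse A, its highest library, the change with Ova was -0.18 (adjusted p = 0.325).

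The type I IL-4 receptor pairs Il4ra with Il2rg, and the type II receptor for IL-4 and IL-13 pairs Il4ra with Il13ra1. Il4ra stood at 52.9, 47.5 and 45.9 CPM in DMSO_Ova and at 92.4, 76.4 and 64.8 CPM in IBET_Ova. With IC it stood at 54.0, 68.7 and 52.3 CPM in solvent and at 106, 108 and 88.7 CPM in iBET. The iBET libraries lay above the solvent libraries under each stimulus. The log2 fold change was 0.69 ± 0.15 (SE) with Ova (adjusted p = 0.00411, 1.61-fold) and 0.79 ± 0.15 with IC (adjusted p = 0.00122, 1.73-fold), higher in 3 of 3 mice each time. Without mouse B the adjusted p was 0.0713 with Ova and 0.0259 with IC, and without DMSO_Ova of mouse A the change with Ova was 0.69 (adjusted p = 0.00847).

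Its partners did not pass the test. Il2rg stood at 97.6, 94.3 and 96.7 CPM in DMSO_Ova, 111, 104 and 114 in IBET_Ova, 103, 116 and 132 in DMSO_IC and 122, 128 and 119 in IBET_IC. It varied least of the 10 genes within DMSO_Ova, with a coefficient of variation of 1.77%. Its drug changes were 0.19 with Ova (95% interval -0.03 to 0.40, adjusted p = 0.168) and 0.07 with IC (-0.14 to 0.28, adjusted p = 0.594). The low gene Il13ra1 stood at 2.05, 3.37 and 2.49 CPM in DMSO_Ova, 3.63, 2.65 and 1.58 in IBET_Ova, 2.61, 6.16 and 3.81 in DMSO_IC and 3.20, 2.03 and 3.96 in IBET_IC. Its groups overlapped in every comparison, and its intervals were wide, from -0.95 to 0.80 with Ova and -1.24 to 0.36 with IC. Without DMSO_Ova of mouse A the change with Ova was 0.15 for Il2rg (adjusted p = 0.363) and -0.19 for Il13ra1 (adjusted p = 0.794). At this depth changes of Il13ra1 within the intervals given above were not excluded.

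The interferon gamma receptor is built from Ifngr1, which binds the ligand and carries JAK1, and Ifngr2, which carries JAK2. Ifngr2 stood at 183, 131 and 129 CPM in DMSO_Ova and at 113, 104 and 85.9 CPM in IBET_Ova. With IC it stood at 169, 135 and 124 CPM in solvent and at 121, 104 and 98.8 CPM in iBET, so that the groups did not overlap under either stimulus. The log2 fold change was -0.54 ± 0.17 (SE) with Ova (adjusted p = 0.027, 0.689-fold) and -0.40 ± 0.16 with IC (95% interval -0.76 to -0.04, adjusted p = 0.0768), lower in 3 of 3 mice each time. Without DMSO_Ova of mouse A the change with Ova was -0.41 (adjusted p = 0.0468). The call with Ova was lost without IBET_Ova of mouse B (adjusted p = 0.0652) or of mouse C (0.101), and without mouse B (0.141) or mouse C (0.10) altogether. With IC Ifngr2 was called with the replicate block (log2 change -0.40, adjusted p = 0.00386), with DESeq2 (adjusted p = 0.0493) and without DMSO_Ova of mouse A (0.0225).

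Ifngr1 stood at 139, 103 and 92.1 CPM in DMSO_Ova, 94.6, 81.9 and 84.4 in IBET_Ova, 102, 88.0 and 77.7 in DMSO_IC and 90.2, 78.8 and 84.0 in IBET_IC. Mouse A was the highest in each group, and the groups overlapped. The drug changes were -0.34 with Ova (95% interval -0.66 to -0.02, adjusted p = 0.102) and -0.08 with IC (-0.40 to 0.24, adjusted p = 0.701). With the replicate block the change with Ova was called (-0.33, adjusted p = 0.0227), and without DMSO_Ova of mouse A it was -0.21 (adjusted p = 0.213).

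Ifnar1, the TYK2-carrying chain of the type I interferon receptor, was the most abundant member in CPM. It stood at 314, 263 and 244 CPM in DMSO_Ova, 336, 320 and 275 in IBET_Ova, 318, 318 and 281 in DMSO_IC and 358, 373 and 330 in IBET_IC. With IC the iBET libraries lay above the solvent libraries, whereas with Ova they overlapped. It was higher with iBET in 3 of 3 mice under each stimulus but was not called, at 0.19 with Ova (95% interval -0.07 to 0.44, adjusted p = 0.253) and 0.21 with IC (-0.04 to 0.46, adjusted p = 0.182). Of 24 other fits, that with 1 surrogate variable alone called it, at 0.24 with Ova (adjusted p = 0.0407) and 0.27 with IC (adjusted p = 0.023). Without DMSO_Ova of mouse A the change with Ova was 0.24 (adjusted p = 0.128).

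The IL-6 receptor combines Il6ra, which binds IL-6, with Il6st, which signals. Il6st stood at 182, 169 and 159 CPM in DMSO_Ova, 178, 171 and 155 in IBET_Ova, 146, 179 and 132 in DMSO_IC and 167, 171 and 160 in IBET_IC. Its drug changes lay closest to 0 of the members with Ova, at -0.01 (95% interval -0.26 to 0.24, adjusted p = 0.955), and were 0.12 with IC (-0.13 to 0.37, adjusted p = 0.432). Il6ra stood at 31.3, 58.5 and 44.4 CPM in DMSO_Ova, 42.5, 39.0 and 46.3 in IBET_Ova, 33.1, 35.9 and 36.6 in DMSO_IC and 30.4, 33.1 and 38.7 in IBET_IC. The 3 DMSO_Ova libraries spanned the values of IBET_Ova, with 61 counts behind that of mouse A. Its drug changes were -0.11 with Ova (-0.49 to 0.27, adjusted p = 0.683) and -0.05 with IC (-0.43 to 0.33, adjusted p = 0.854). Without DMSO_Ova of mouse A the change of Il6ra with Ova was -0.32 (adjusted p = 0.127) and that of Il6st -0.01 (adjusted p = 0.954).

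**Figure D3:**
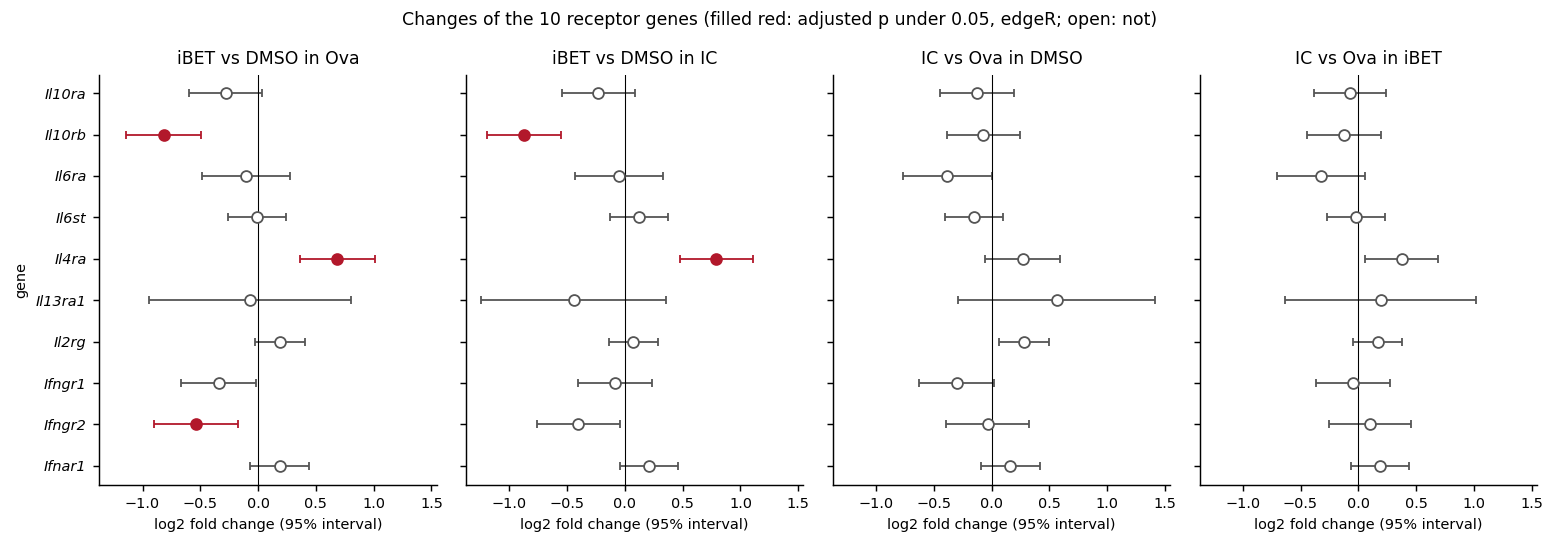
Log2 fold change of the 10 receptor genes in 4 comparisons, with 95% intervals from the edgeR fit; filled points had an adjusted p under 0.05. Only Il10rb, Il4ra and, with Ova, Ifngr2 are filled, and the intervals of Il13ra1 are the widest.

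The stimulus comparisons asked whether immune complexes change the receptors. By edgeR 0 of 10 members were called with DMSO, beside 1.22% of all genes, and 0 of 10 with iBET, beside 0.349%. DESeq2 and limma on the normalized values also called 0 in both. At an unadjusted p under 0.05 there were 2 members with DMSO, Il2rg and Il6ra, beside 1341 of all 11468 genes. With iBET there was 1, Il4ra, beside 860. Il2rg was 0.28 higher on the log2 scale with DMSO (95% interval 0.07 to 0.50, adjusted p = 0.239) and 0.17 higher with iBET (-0.05 to 0.38, adjusted p = 0.765). Il4ra was 0.27 higher with DMSO (-0.06 to 0.59, adjusted p = 0.559) and 0.37 higher with iBET (0.06 to 0.69, adjusted p = 0.555), in 3 of 3 mice each time. Il6ra was at -0.38 with DMSO (-0.77 to -0.00028, adjusted p = 0.427; -0.57 and adjusted p = 0.107 without DMSO_Ova of mouse A) and at -0.32 with iBET (-0.70 to 0.05, adjusted p = 0.737). The CPM of Ova and IC did not overlap for 1 member with DMSO (Il2rg), beside 15.3% of all genes, and for 2 with iBET (Il2rg and Il6ra), beside 18.9%. Leaving out Il13ra1, the lowest and highest interval ends among the members were -0.77 and 0.59 with DMSO, and -0.70 and 0.69 with iBET. These ends belong to different genes, and changes within a gene's own interval were not excluded.

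The interaction asked whether iBET changes the response to the complexes, as the log2 change with IC in iBET minus that in DMSO. By edgeR 0 members were called, beside 0% of all genes. At an unadjusted p under 0.05 there were 0 members and 292 of all 11468 genes. DESeq2 called 4 genes and limma 0, none of them a member. The values ran from -0.12 to 0.26 without Il13ra1, with intervals from -0.51 to 0.71. The drug changes of Il10rb and Il4ra under Ova and IC thus lay within these errors of each other.

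Each of these receptors needs both chains, so the ratio of their counts per kb within a library was taken, which depends on no library size. The difference between groups was tested by an exact permutation test, two-sided, with the drug label exchanged within each stimulus or the stimulus label within each drug arm. There were 400 arrangements, the smallest p was 0.005, and p was adjusted over 12 tests (6 ratios, 2 factors). The log2 ratio Il10ra/Il10rb was -1.29, -1.70 and -1.52 in DMSO_Ova (mice A, B and C) and -1.08, -1.03 and -0.78 in IBET_Ova. It was -1.62, -1.48 and -1.60 in DMSO_IC and -0.93, -0.86 and -0.98 in IBET_IC. The ligand-binding chain thus gained on the shared chain, with no overlap between drug and solvent, by 0.59 on the log2 scale (1.51-fold, higher in 6 of 6 pairs of libraries from the same mouse and stimulus, permutation p = 0.005, adjusted p = 0.015).

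With iBET 3 further ratios were higher in 6 of 6 pairs, each at a permutation p of 0.005 and an adjusted p of 0.015. Il4ra/Il2rg was 0.60 higher (1.51-fold), at -2.66 to -2.08 in solvent and -2.15 to -1.54 in iBET, ranges that overlap. Il4ra/Il13ra1 was 0.98 higher (1.98-fold), although with differences within a mouse from 0.13 to 2.23 and with few Il13ra1 counts behind it. Ifngr1/Ifngr2 was 0.26 higher (1.20-fold), at -0.33 to 0.06 in solvent and -0.02 to 0.38 in iBET. Ifnar1/Ifnar2, with the other type I interferon chain as partner, was 0.31 higher in 5 of 6 pairs (permutation adjusted p = 0.0857), and 0.40 higher without DMSO_Ova of mouse A (adjusted p = 0.02). Il6ra/Il6st differed by -0.10 (adjusted p = 0.69), with values within a mouse from -0.60 to 0.46.

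With IC, Ifngr1/Ifngr2 was lower than with Ova in 6 of 6 pairs, by -0.21 on the log2 scale (0.866-fold, permutation adjusted p = 0.036). This call was lost in 3 of 12 fits without 1 library, those without IBET_Ova of mouse C (adjusted p = 0.07) and IBET_IC of mouse A or B (0.06 each). By edgeR neither chain was called with IC. Ifngr1 was at -0.30 in DMSO and -0.04 in iBET (adjusted p = 0.47 and 0.982). Ifngr2 was at -0.03 and 0.10 (adjusted p = 0.986 and 0.943). Ifnar1/Ifnar2 was higher with IC by 0.38 (1.30-fold, 5 of 6 pairs, adjusted p = 0.04), a call lost in 9 of 12 fits without 1 library, where the adjusted p reached 0.12. The other 4 ratios differed by -0.22 to 0.10 with IC and were not called. When labels were exchanged only within a mouse, 64 arrangements were left with a smallest p of 0.03125, and each of the 6 called ratios had an adjusted p of 0.075 except Ifnar1/Ifnar2 with IC, at 0.161.

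**Figure D4:**
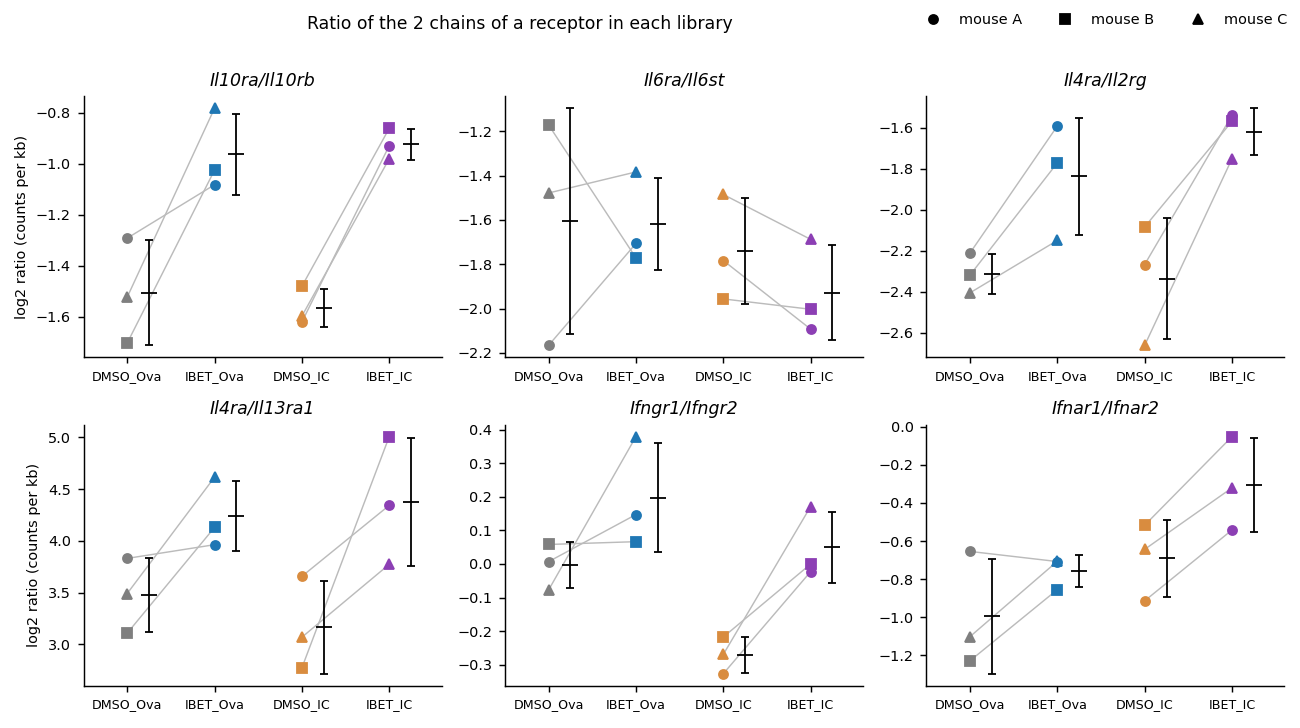
Log2 ratio of the counts per kb of paired receptor chains in every library, with a symbol per mouse, grey lines between the libraries of a mouse under 1 stimulus, and mean ± SD beside them (n = 3). Il10ra/Il10rb is higher in iBET for every mouse and does not overlap the solvent values.

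The genes of 3 members, Il10rb, Ifnar1 and Ifngr2, lie together with Ifnar2 on the plus strand of chromosome 16 within 193 kb (GENCODE vM21, GRCm38/mm10, the build of the files). In order these are Ifnar2 at chr16:91372783-91405589, Il10rb at chr16:91406164-91425834, Ifnar1 at chr16:91485238-91507441 and Ifngr2 at chr16:91547072-91565623. The gaps between them are 0.574, 59.4 and 39.6 kb. The 4 neighbours did not move together with iBET. Il10rb and Ifngr2 were lower and Ifnar1 was not called, as given above. Ifnar2, which is no member, stood at 277, 345 and 294 CPM in DMSO_Ova and 308, 324 and 252 in IBET_Ova, with a log2 change of -0.05 ± 0.16 (SE, adjusted p = 0.827) with Ova and -0.18 ± 0.16 (adjusted p = 0.407) with IC. Il10rb and Ifnar2 share exons with the read-through gene Gm21970, which was not analysed here. How reads of the shared exons were counted is not known.

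The other members are scattered. Il10ra is on chromosome 9 (chr9:45253837-45269149, minus strand), Il6ra on chromosome 3 (chr3:89864059-89913196, minus strand), Il6st on chromosome 13 (chr13:112464070-112510086, plus strand), Il4ra on chromosome 7 (chr7:125552120-125579474, plus strand) and Ifngr1 on chromosome 10 (chr10:19591949-19610229, plus strand). Il13ra1 (chrX:36112110-36171259, plus strand) and Il2rg (chrX:101264378-101268255, minus strand) are on X. Exons of Il2rg overlap Gm20489 on the same strand, and exons of Il6ra and Il4ra overlap Gm42809 and Gm44876 on the opposite strand. The use of strand in counting is not given in the sources used here, so reads of these pairs cannot be told apart.

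Upstream sequences were taken from RefSeq (GRCm38.p6), which matched 8 of the 10 members, all but Il10ra and Il10rb. The 250 bases before the start are shown for Ifngr1 and Ifngr2, which form 1 receptor but shifted in their ratio, and for Ifnar1, the neighbour of Ifngr2. Capitals mark GC boxes (GGGCGG on either strand), the letters bound by Sp and Klf factors.
Ifngr1, chr10:19591699-19591948, plus strand: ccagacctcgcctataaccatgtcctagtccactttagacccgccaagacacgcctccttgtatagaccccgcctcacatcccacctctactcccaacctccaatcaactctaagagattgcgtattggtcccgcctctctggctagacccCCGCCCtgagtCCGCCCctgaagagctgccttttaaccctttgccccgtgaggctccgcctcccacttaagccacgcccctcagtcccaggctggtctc
Ifngr2, chr16:91546809-91547058, plus strand: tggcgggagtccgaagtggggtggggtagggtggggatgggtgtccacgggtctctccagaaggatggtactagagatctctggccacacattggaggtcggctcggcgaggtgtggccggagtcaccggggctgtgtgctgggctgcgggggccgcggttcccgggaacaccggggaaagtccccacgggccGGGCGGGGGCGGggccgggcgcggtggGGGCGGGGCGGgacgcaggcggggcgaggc
Ifnar1, chr16:91484965-91485214, plus strand: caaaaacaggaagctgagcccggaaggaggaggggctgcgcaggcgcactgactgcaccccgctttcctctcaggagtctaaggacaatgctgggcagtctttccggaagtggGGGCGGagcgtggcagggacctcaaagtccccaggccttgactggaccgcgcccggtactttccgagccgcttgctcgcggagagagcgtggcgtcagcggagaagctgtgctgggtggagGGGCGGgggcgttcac
The window of Ifngr2 held 4 GC boxes, and those of Ifngr1 and Ifnar1 held 2 each. At least 1 was present in 6 of the 8 members, beside 32.7% of all 32851 windows of this length. For Il4ra, 1 of these 6, only 99 bases of the window precede its GENCODE start, and they hold no whole GC box. A CCAAT box (CCAAT on either strand) was in 4 of 8, beside 33.8%. An ETS motif (CCGGAAG) was in Ifnar1 and Il2rg, beside 6.91%, an E-box (CACGTG) in Il6ra, beside 6.02%, and the NF-kB consensus in Ifngr2, beside 7.25%. The GAS motif of STAT dimers (TTCNNNGAA) was in none of the 8, beside 7.02%. The windows of Ifngr2 and Ifngr1 had 74.0% and 59.2% G and C, beside a median of 52.4%. These letters are a description and no evidence of binding.

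Within groups, 4 members (Il10ra, Il10rb, Ifngr1 and Ifngr2) were highest in mouse A in all 4 groups, which held for 3.51% of all genes tested. The neutrophil marker S100a9 stood at 5.56 to 8.49 CPM in mouse A, 7.36 to 24.2 in mouse B and 19.9 to 27.6 in mouse C, and its part in these differences was not tested. Over the 12 libraries the log2 CPM of Il10ra and Ifngr2 went together (r = 0.90), as did those of Il10rb and Ifngr2 (r = 0.90), whereas Il10rb and Il4ra went apart (r = -0.77). These values share the groups and the mice and are a description. Among 9427 other genes with a mean count of at least 50, the most like Il10rb was Map4k3 (r = 0.99), the most like Il4ra was Chuk (r = 0.98), and the most like Ifngr2 was Skil (r = 0.97). For the others these were Trappc6b with Il10ra (r = 0.97), Snx9 with Ifngr1 (0.95), Nol9 with Il2rg (0.92), Desi2 with Il13ra1 (0.92), Arl5a with Ifnar1 (0.92), Fhod1 with Il6ra (0.88) and Tgfbr1 with Il6st (0.87).

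Downstream of the receptors, 10 JAK and STAT genes were tested. With iBET and Ova 5 rose and 1 fell, and with IC 4 rose and 2 fell, so that 6 of 10 were called under each, beside 31.3% and 34.8% of all genes. The median log2 change of the list was 0.29 with Ova and 0.22 with IC, beside 0.02 and 0.00 for all genes. Without mouse B, 2 and 3 of the 10 were called, and without DMSO_Ova of mouse A 4 were called with Ova. The fit without mouse B called fewer of all genes with Ova too, which also applies to the lists below. The kinase gene Jak1, whose product sits on Il10ra, Il4ra, Ifngr1 and Il6st, rose by 0.41 ± 0.08 (SE) with Ova (adjusted p = 0.00251) and 0.37 ± 0.08 with IC (adjusted p = 0.00354), calls lost without mouse B or C. Jak2, the kinase of Ifngr2, rose with Ova (0.31, adjusted p = 0.0298), in only 11 of 24 other fits, and was at 0.25 with IC (adjusted p = 0.0626). Jak3, the kinase of Il2rg, was at 0.13 and 0.07 (adjusted p = 0.703 and 0.822), and Tyk2, the kinase of Il10rb and Ifnar1, was at 0.26 and 0.19 (adjusted p = 0.400 and 0.522).

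Stat3, which IL-10 and IL-6 activate, rose by 0.81 ± 0.12 (SE) with Ova (adjusted p = 0.000333) and 0.79 ± 0.12 with IC (adjusted p = 0.000312). Stat2 of the type I interferon pathway rose by 0.85 and 0.82 (adjusted p = 2.24e-05 and 2.33e-05). Stat2 and Stat3 were called in all 24 other fits under both stimuli. Stat5a rose by 0.52 and 0.44 (adjusted p = 0.0159 and 0.0277), in 19 and 16 of 24 other fits.

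Stat6, the effector of IL-4 and IL-13, fell to log2 changes of -0.47 ± 0.09 (SE) with Ova (adjusted p = 0.00204) and -0.31 ± 0.09 with IC (adjusted p = 0.02), opposite in sign to its receptor chain Il4ra. It was called in 23 and 17 of 24 other fits, and without mouse B in neither. The low gene Stat4 was at -0.56 with Ova (adjusted p = 0.196) and fell with IC, at -1.39 (adjusted p = 0.00409), and Stat5b was at -0.28 and -0.14 (adjusted p = 0.0785 and 0.341). With the complexes 0 of these 10 genes were called in either arm by edgeR, DESeq2 or limma. At an unadjusted p under 0.05 there was 1 with DMSO (Stat6) and 0 with iBET, beside 1341 and 860 of all 11468 genes.

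**Figure D5:**
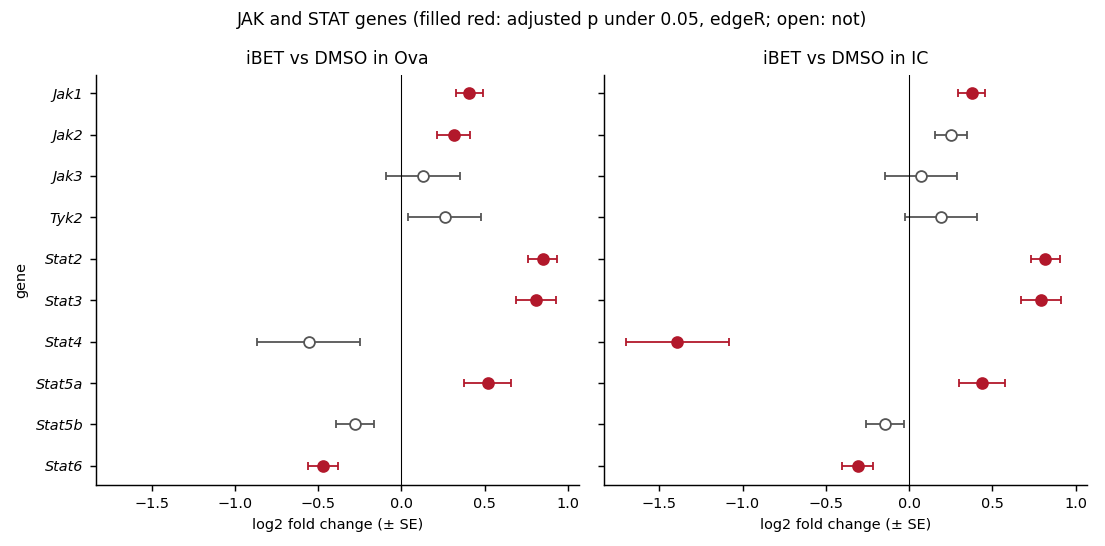
Log2 fold change ± SE of 10 JAK and STAT genes with iBET under Ova and IC; filled points had an adjusted p under 0.05 (edgeR). Jak1, Stat2, Stat3 and Stat5a lie above 0 and Stat6 below 0 in both.

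Of 35 other cytokine receptor genes 15 were tested, and 3 rose and 3 fell with iBET under each stimulus. That is 6 of 15 under each, beside 31.3% of all genes with Ova and 34.8% with IC. The list median was -0.05 with Ova and -0.18 with IC. Without mouse B, 3 were called under each, and without DMSO_Ova of mouse A 5 with Ova. Il7r, the IL-7 partner of Il2rg, fell to log2 changes of -1.80 ± 0.16 (SE) with Ova and -1.76 ± 0.16 with IC (adjusted p = 8.3e-06 and 7.87e-06). Il21r, the IL-21 partner of Il2rg, fell too, at -1.63 and -1.55 (adjusted p = 0.000107 and 0.000106). Lifr, a partner of Il6st, rose by 1.52 and 2.15 (adjusted p = 1.78e-06 and 1.21e-07). Crlf2, the TSLP receptor, rose by 0.43 and 0.53 (adjusted p = 0.0488 and 0.0159), the former in only 6 of 24 other fits. The other 2 were Il20rb and Il15ra, low genes under the mean count set for naming list genes. Il20rb rose by 1.67 ± 0.44 (SE) and 1.26 ± 0.37 (adjusted p = 0.0121 and 0.0199). Il15ra fell to -2.08 ± 0.59 (SE) and -2.77 ± 0.58 (adjusted p = 0.018 and 0.00276). Without mouse B the 3 genes called under each stimulus were Lifr, Il7r and Il21r, so the calls of Il20rb and Il15ra were lost. Lifr also fell with IC in DMSO, at -0.99 ± 0.11 (adjusted p = 0.00142), a change not called without mouse B or C.

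Of 26 ligand genes 13 had no counts in any library, among them Il4, Il13, Ifng and Ifnb1, which allows up to 3 counts or 0.16 to 1.54 CPM in a library. Il10 reached at most 1.82 CPM and Il6 0.253 CPM. Only 4 ligand genes were tested (Il10, Il15, Osm and Ebi3), and 0 were called in each of the 4 comparisons by edgeR, DESeq2 or limma. At an unadjusted p under 0.05 there were 2 with iBET and Ova, beside 4774 of all 11468 genes, and 0 in the others. With the replicate block Il10 was called with iBET and Ova, at -2.08 (adjusted p = 0.028). In the main edgeR fit it was at -1.71 (adjusted p = 0.0823). Without DMSO_Ova of mouse A, 1 ligand gene was called with iBET and Ova.

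Among 17 feedback regulators of these pathways 15 were tested. With iBET 5 rose and 3 fell with Ova, and 6 rose and 3 fell with IC. These are 8 and 9 of 15, beside 31.3% and 34.8% of all genes, and the list medians were 0.38 and 0.21. Without mouse B, 2 and 4 were called, and without DMSO_Ova of mouse A 7 with Ova. Socs7 rose by 0.98 and 0.91 (adjusted p = 0.000325 and 0.000346), Pias3 by 0.59 and 0.65 (0.0175 and 0.00837) and Socs6 by 0.52 in both (0.0152 and 0.012), of which Socs7 alone was called in all 24 other fits under both stimuli. Socs5, another inhibitor of cytokine signalling, fell to -1.28 and -0.72 (adjusted p = 6.98e-06 and 0.000322), in all 24 other fits. Ptpn6, which encodes the phosphatase SHP-1, fell to -0.87 and -1.12 (0.0331 and 0.00881), the former in 16 of 24 other fits. Usp18, a brake on Ifnar2 signalling, fell to -0.93 and -0.77 (0.00378 and 0.00892), calls lost without mouse B.

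Socs3, the STAT3-induced inhibitor of gp130 signalling, rose with IC by 2.64 ± 0.42 (SE) in DMSO and 2.43 ± 0.37 in iBET (adjusted p = 0.00827 and 0.0118). Its level went from 0.908 ± 0.815 to 7.65 ± 2.43 CPM in DMSO and from 1.84 ± 0.358 to 9.78 ± 3.06 CPM in iBET. It was too low for the fit that asked for at least 10 counts in every library, and it was called in 18 and 16 of the 23 other fits, not without mouse B or C.

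Of 9 tested STAT3 and IL-10 targets 2 rose and 3 fell with iBET and Ova, and 2 rose and 4 fell with IC. These are 5 and 6 of 9, beside 31.3% and 34.8% of all genes, and the list medians were -0.14 and -0.10. Without mouse B, 3 and 4 were called, and without DMSO_Ova of mouse A 5 with Ova. Nfil3 rose by 2.35 and 2.11 (adjusted p = 2.67e-05 and 2.5e-05) and Hmox1 by 1.43 and 1.55 (2.88e-05 and 1.32e-05). Bcl3 fell to -1.40 and -1.12 (0.00147 and 0.00265) and Sbno2 to -0.83 and -0.85 (0.000186 and 0.000121). Tnfaip3, which encodes the NF-kB inhibitor A20, fell with iBET, at -0.56 and -0.42 (adjusted p = 0.00635 and 0.0178), and rose with IC by 1.34 in DMSO and 1.48 in iBET (adjusted p = 0.000676 and 0.000304), calls lost without mouse B. Il1rn, the IL-1 receptor antagonist, rose with IC in DMSO by 0.86 (adjusted p = 0.00576), not without mouse B or C, and was at -0.04 in iBET (adjusted p = 0.984). With iBET it fell under IC, at -1.04 (adjusted p = 7.14e-05), in all 24 other fits, and was at -0.14 with Ova (adjusted p = 0.428). The difference between these changes, the interaction, was -0.89 (adjusted p = 0.701). By edgeR the interaction called no gene of these lists. With Socs3, 3 genes of this list were called with IC in DMSO and 2 in iBET, beside 1.22% and 0.349% of all genes. Whether STAT3 or IL-10 had a part in these changes was not tested. Without mouse B there were 0 in both.

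Of 9 tested STAT6 and IL-4 targets 1 rose and 2 fell with iBET and Ova, and 1 rose and 3 fell with IC. These are 3 and 4 of 9, beside 31.3% and 34.8% of all genes, and the list medians were -0.28 and -0.10. Without mouse B, 0 and 1 were called, and without DMSO_Ova of mouse A 4 with Ova. Egr2 fell to -2.49 and -2.87 (adjusted p = 0.000808 and 0.00021), the latter also without mouse B. Arg1, the arginase of alternatively activated macrophages, fell to -1.91 and -1.80 (0.0104 and 0.0113), whereas Irf4 rose by 1.66 and 1.59 (0.00494 and 0.00471).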

How the data were processed

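The authors trimmed reads with Trim Galore, aligned them to mm10 with HISAT2 and assigned them to genes with featureCounts. The annotation, use of strand and treatment of multiply aligned reads are not given in the sources used here. The deposited count table holds whole-number counts per symbol. The deposited normalized signal equalled these counts divided by DESeq2 size factors (largest relative gap 4.89e-15) and served only as an alternative.

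The counts went into edgeR 4.0.16 under R 4.3.3, with filterByExpr (minimum count 10), TMM, 1 term per group, a robust quasi-likelihood fit to 12 libraries and 5 contrasts. The SE of a log2 fold change was obtained from its size and the F statistic. The steps were tested on simulated data. Of 24421 symbols 24043 were matched to GENCODE vM21, which gave exon lengths. Chain ratios used a prior count of 0.5.

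Members and lists were chosen with earlier results of these data known. Beside the members the text names the JAK and STAT genes analysed, list genes called with IC, up to 3 list genes per direction called in both drug contrasts with a mean count of at least 50, Ifnar2, and the gene most like each member. Other genes were named after their values were seen, and some list genes are not reported here.

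Pairing comes from the labels, which give the mouse. Correlations of deviations from group means ran from -0.0725 to 0.542 in 18 pairs of libraries from the same mouse (median 0.263) and had a median of -0.134 in 36 pairs from different mice.

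Alternatives were DESeq2 1.42.0, its size factors in edgeR, no filter, at least 10 counts in every library, a replicate block by mouse, 1 surrogate variable (sva 3.50.0), compared groups alone, the normalized signal in limma 3.58.1 (pseudocount 1), removal of Rn45s, an adjusted p under 0.01, a prior count of 2, and omission of each library and mouse. The same for lists was added after seeing the data.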

Additional observations from a re-analysis of the deposited data

How the results depend on the processing

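Depth limits Il13ra1 above all. With the replicate block 5 members were called with iBET in Ova (38.3% of all genes), and with 1 surrogate variable 5 in Ova (41.3%) and 4 in IC (42.8%). Without 1 library or mouse, 0 to 4 were called in Ova. The 0 belonged to the fit without mouse B, which called fewer of all genes too, as given above. This range therefore does not speak of the members alone. With labels exchanged within a mouse, the called ratio differences kept their size (0.59, 0.60, 0.98 and 0.26 with drug, -0.21 and 0.38 with IC) but none passed. All but Ifnar1/Ifnar2 with IC stood at the smallest permutation p of that exchange, 0.03125, so no smaller p was possible for them. Without a mouse no ratio can pass. Without 1 library or mouse, drug differences ran from 0.54 to 0.66 (Il10ra/Il10rb), -0.24 to 0.0107 (Il6ra/Il6st), 0.51 to 0.67 (Il4ra/Il2rg), 0.66 to 1.27 (Il4ra/Il13ra1), 0.17 to 0.34 (Ifngr1/Ifngr2) and 0.25 to 0.40 (Ifnar1/Ifnar2). IC differences ran from -0.11 to 0.0525 (Il10ra/Il10rb), -0.26 to 0.19 (Il4ra/Il13ra1), -0.24 to -0.16 (Ifngr1/Ifngr2) and 0.19 to 0.59 (Ifnar1/Ifnar2). Signs turned only in members and ratios that were not called. With 1 surrogate variable these were Ifngr2 with IC in DMSO (0.0118), Ifngr1 with IC in iBET (0.0130), Il6st with iBET in Ova (0.00893) and Ifngr1 with iBET in IC (0.0314). Without 1 library or mouse, log2 changes with IC in DMSO ran from -0.21 to 0.00275 (Il10ra), -0.18 to 0.00798 (Il10rb) and -0.17 to 0.12 (Ifngr2). With IC in iBET they ran from -0.18 to 0.00398 (Il10ra), -0.0750 to 0.0466 (Il6st), -0.24 to 0.53 (Il13ra1), -0.0966 to 0.0223 (Ifngr1) and -0.00200 to 0.19 (Ifngr2). With iBET in Ova they ran from -0.32 to 0.20 (Il6ra), -0.0589 to 0.0460 (Il6st) and -0.50 to 0.18 (Il13ra1), and in IC from -0.15 to 0.0305 (Il6ra), -0.76 to 0.15 (Il13ra1) and -0.0379 to 0.19 (Il2rg). The causes were not tested. Among members, chain ratios and named list genes, the replicate block changed no call other than those given.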
